A study of Mus musculus with 4 samples.

Results

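The proteasome genes described here are the protein-coding genes of the count table whose mouse symbol begins with Psma, Psmb, Psmc, Psmd, Psme, Psmf or Psmg. The rule took 50 of the 22298 genes listed, of which 47 had enough counts to be tested. By role 15 belong to the 20S core, 4 are beta subunits of the immunoproteasome and thymoproteasome, and 17 belong to the 19S regulatory particle. Of these 4 beta subunits, Psmb8, Psmb9 and Psmb10 are called inducible below, and Psmb11 is that of the thymus. The others are 7 assembly chaperones, 6 genes of the other activators and the inhibitor, and Psmc3ip. The symbol rule catches Psmc3ip, but it encodes a cofactor of meiotic recombination and no proteasome subunit.

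RNA-seq was performed on brown adipose tissue (BAT) of C57BL/6 fetuses at E18.5, from dams given as C57BL/6J in the study's methods. Dams of the control group drank tap water and dams of the fructose group drank water holding 20% (w/v) fructose through gestation, and each group had 2 libraries. No source states how many fetuses or litters stand behind a library, so p-values measure only the spread between these libraries, which may be technical. The deposited values are reads counted per gene, and the sources used here do not give how strand and reads matching several genes were treated.

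The proteasome degrades proteins tagged with ubiquitin. Its barrel, the 20S core, has outer rings of alpha subunits, which gate the entrance, and inner rings of beta subunits, of which Psmb5, Psmb6 and Psmb7 carry the proteolytic sites. The 19S regulatory particle binds, unfolds and feeds in the substrate, and interferon can induce Psmb8, Psmb9 and Psmb10 to take the places of Psmb5, Psmb6 and Psmb7. In brown fat the pathway is known to be needed for protein quality control during heat production, with the transcription factor NFE2L1 (Nrf1) raising subunit genes.

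Total counts were 18542897 to 19224529 in the control and 22461298 to 23645147 in the fructose libraries. A gene with 0 counts could still have a level of up to 0.127 to 0.162 CPM (a gene's counts relative to those of its whole library; the limit is 3 counts, for counting error only). All libraries are labelled male, but Y-linked genes had 422 and 390 counts in control and 0 in both fructose libraries, so that fetal sex and treatment cannot be told apart in any comparison below. The share of counts on mitochondrially encoded genes was 5.89% and 6.49% in control and 10.8% and 11.2% in fructose. Of 14 skeletal muscle markers, 13 rose, and their summed level was 329 and 427 CPM in control against 948 and 717 CPM in fructose. Of 8 erythroid markers, 5 fell (sums 15290 to 19200 against 11770 to 12140 CPM). After trends on transcript length and GC content were removed, as described below, 13 muscle markers were called higher. In that fit 0 erythroid markers were called lower, and their median log2 fold change went from -0.51 to -0.13. The 13 brown adipocyte markers, all detected, summed to 24330 and 26210 CPM in control and 24240 and 22390 CPM in fructose. Singly they moved both ways, with 3 called higher (Ppargc1a, Ebf2 and Elovl3) and 3 lower (Cox8b, Cox7a1 and Adipoq). With the length and GC trends removed, 4 were called higher and 1 lower. The part of these shifts in the results on proteasome genes was not tested, and in bulk tissue fewer cells of a type and less RNA per cell cannot be told apart.

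Promoter windows of 250 bases before to 50 bases after the start (RefSeq, GRCm38.p6) were given for 42 of the 50 genes. They were searched on both strands for the core of the antioxidant response element, TGACNNNGC, to which NFE2L1 binds, and for a core of the interferon response element, GAAANNGAA. No match of one overlapped a match of the other in these genes. The stretches shown come from catalytic and strongly changed members, each with its match in capitals; the first 3 hold the antioxidant core and the last the interferon core. They lie at chr14:54618014-54618062 (minus strand), chr11:70525328-70525356 (plus), chr14:45329577-45329625 (plus) and chr11:97703252-97703300 (plus), all before the start, and the match reads on the opposite strand in Psmc6 and Psmb3.
Psmb5: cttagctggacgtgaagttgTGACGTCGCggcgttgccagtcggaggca
Psmb6: cagaggcggactaaagagagTGACGGAGC
Psmc6: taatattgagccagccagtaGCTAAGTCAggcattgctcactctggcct
Psmb3: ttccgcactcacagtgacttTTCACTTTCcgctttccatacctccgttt

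The antioxidant core was found in 6 of the 42 windows, or 14.3% (Psmb5, Psmb6, Psmc6, Psmd12, Psmd9 and Psme4), beside 14% of all 27025 windows and 16.9% of those of tested genes. Of these 6 genes, Psmb5 and Psmb6 were lower in fructose and Psmc6 and Psme4 higher, as given below. The interferon core was found in 7 windows, or 16.7% (Psmb3, Psmb4, Psmc2, Psmd4, Psmd9, Psme1 and Psmg4), beside 9.76% of all windows and 8.48% of those of tested genes. The windows of Psmb8, Psmb9 and Psmb10 did not hold these letters. A match describes the letters of the window and is not evidence of binding.

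**Figure D1:**
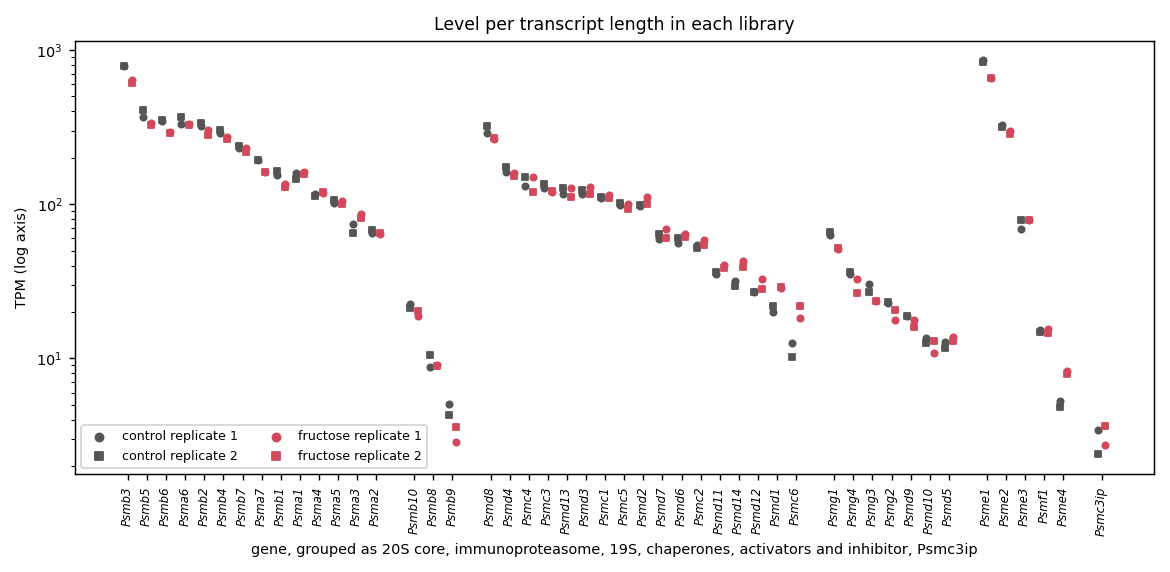
Level of the 47 tested genes as TPM (log axis) in each library, with genes grouped by role and ordered by their control mean. Grey marks are the control and red marks the fructose libraries. Within the 20S core the control means run from 66.2 (Psma2) to 783 (Psmb3), while the 3 inducible beta subunits lie between 4.68 and 21.9.

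Levels between genes were compared as TPM, counts scaled by transcript length and then to the same total in every library. In control BAT the median level was 214 TPM over the 14 tested 20S genes, 97.5 TPM over the 17 genes of the 19S particle, 23.1 TPM over the 7 chaperones and 9.69 TPM over the 3 tested inducible beta subunits. The highest level of any member was that of Psme1, a subunit of the PA28 activator, at 848 ± 10.6 TPM (SD, n = 2), followed by the beta subunit Psmb3 at 783 ± 1.19 TPM. Within the ring of 6 ATPases, whose proteins are present in equal number, Psmc6 stood at 11.4 ± 1.71 TPM and the other 5 between 53.2 and 141 TPM. The other 3 members were not tested: Psma8, a testis alpha subunit, had 1 or 2 counts in each library, and Psmb11, the thymus beta subunit, and Psme2b had 0 counts in all 4 libraries.

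Across the 47 tested genes, 10 fell and 4 rose in fructose in edgeR's quasi-likelihood test at a Benjamini-Hochberg adjusted p under 0.05. Of all 12888 genes tested, 10.7% fell and 15.5% rose at that threshold. At an unadjusted p under 0.05 edgeR gave 19 members lower and the same number, 4, higher, and DESeq2 called 10 lower and 3 higher (adjusted). The share of all tested genes at an unadjusted p alone was not computed, here or below, so these unadjusted counts have no background. Without fructose replicate 2 the members called lower numbered 3, and without fructose replicate 1 those called higher numbered 2. Below zero were 37 of the 47 fold changes, with a median log2 fold change of -0.158 beside 0.0025 over all tested genes. In 29 genes both fructose libraries lay below both control libraries, beside 31.6% of all tested genes, and in 5 both lay above, beside 33.4%. At the thresholds of the study's methods, an unadjusted p under 0.05 and a fold change above 1.3, 6 members passed (Psmb3, Psmb9, Psmc6, Psmg1, Psme1 and Psme4), beside 23.8% of all tested genes. Together the members held 0.517% and 0.525% of all counts in control and 0.483% and 0.464% in fructose.

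**Figure D2:**
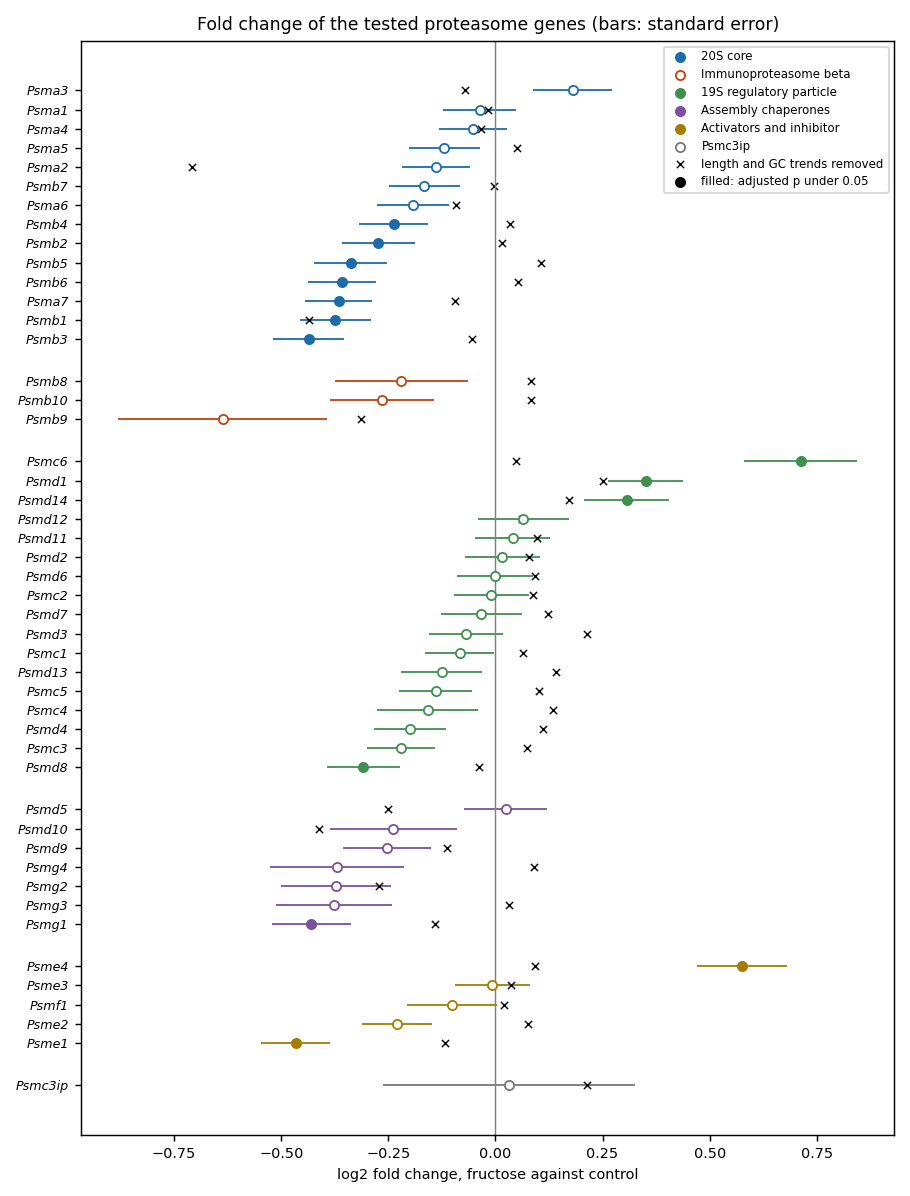
Log2 fold change (fructose against control, horizontal axis) of each tested gene, with bars of 1 standard error, grouped by role; filled points have an adjusted p under 0.05, and crosses are the values after the length and GC trends were removed. The constitutive beta subunits lie left of zero, from -0.44 to -0.17, and their crosses lie around zero except that of Psmb1.

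The fold changes followed transcript length and base composition, as they did over all tested genes. Spearman's rho between log2 fold change and transcript length was 0.667 over the 47 members and 0.467 over 12884 tested genes, and with GC content it was -0.56 and -0.521; these describe genes of the same 4 libraries and carry no test. Of the 16 members shorter than 1200 bases, 16 were below zero, 8 of them called lower, with a median of -0.35 beside -0.25 over all 1500 tested genes of that length. Of the 11 members of 2000 bases or more, 5 were below zero, 3 were called higher and none lower, with a median of 0.016 beside 0.11. With a smooth trend on both properties removed from each library, the median of the members became 0.050, beside 0.050 over all tested genes. Over the members rho was then 0.117 with length and 0.277 with GC content, beside 0.0045 and -0.0087 over the 12884 tested genes. Then 2 members, Psma2 and Psmb1, were lower (all tested genes: 1.64%) and 0 were higher (4.69%) at an adjusted p under 0.05 in edgeR's quasi-likelihood test, and 4 were lower and 2 higher at an unadjusted p under 0.05. Values after this removal are given beside the groups below, and whether length and composition acted through the libraries or the tissue was not tested.

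**Figure D3:**
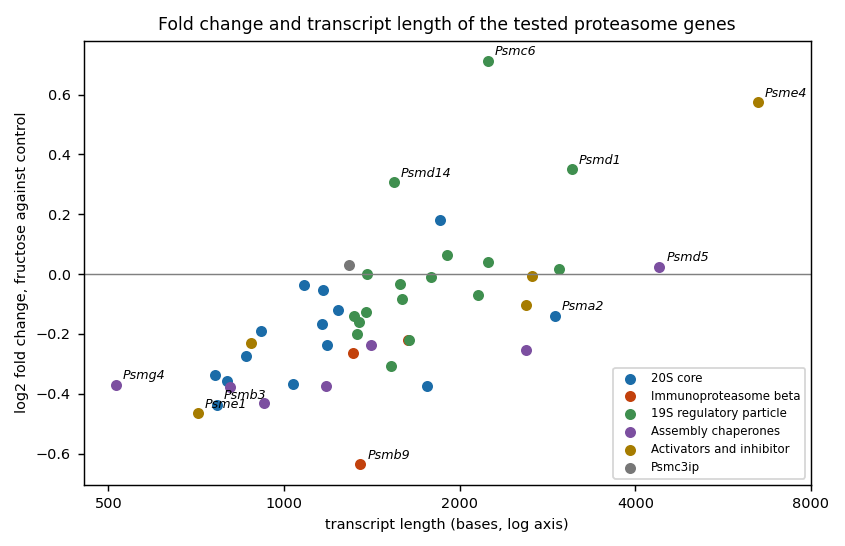
Log2 fold change (fructose against control) of the 47 tested genes against transcript length in bases (log axis), coloured by role. All 16 genes under 1200 bases lie below zero, and 3 of the 4 genes that rose are at least 2000 bases long.

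In the 20S core, 7 of 14 tested genes fell and none rose, beside 10.7% and 15.5% of all tested genes. The median log2 fold change was -0.21. Of the constitutive beta subunits 6 of 7 fell and of the tested alpha subunits 1 of 7, with medians of -0.34 and -0.12, and the difference between the rings was not tested. Pseudogenes of Psmb5, Psmb6 and Psmb7 are annotated but are not in the count table, so how reads shared with them were counted is uncertain. The beta genes are also the shorter, with a median length of 859 bases against 1165 bases. After removal of both trends the medians were 0.016 and -0.070.

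Psmb5, the chymotrypsin-like subunit, had 193 and 212 CPM in control and 166 and 155 CPM in fructose. Both fructose libraries lay below both controls, and edgeR's quasi-likelihood test gave a log2 fold change of -0.34 ± 0.085 (SE; Benjamini-Hochberg adjusted p = 0.014). Psmb6, the caspase-like subunit, had 190 and 193 CPM against 153 and 145 CPM, a log2 fold change of -0.36 ± 0.080 in the same test (adjusted p = 0.0077). Its groups did not overlap either. After both trends were removed Psmb5 was at 0.11 and Psmb6 at 0.051, and neither passed (edgeR adjusted p = 0.48 and 0.72). Psmb7, the trypsin-like subunit, had 184 and 191 CPM against 174 and 160 CPM, and its log2 fold change of -0.17 ± 0.083 did not pass (adjusted p = 0.16 by edgeR), although its groups did not overlap. Exons of Psmb7 overlap those of Nek6 on the other strand over 405 bases, so reads there cannot be assigned with certainty.

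Of the beta subunits without a proteolytic site, Psmb3 had the lowest log2 fold change in the fit without trend removal, and Psmb1 the lowest after both trends were removed. Psmb3 had 413 and 411 CPM in control and 315 and 294 CPM in fructose, a log2 fold change of -0.44 ± 0.082 (adjusted p = 0.0034, edgeR's quasi-likelihood test), which was -0.054 after both trends were removed (edgeR adjusted p = 0.71). The control libraries were nearly equal and the fructose libraries lay at 76.5% and 71.3% of their mean. Psmb1 had 188 and 199 CPM against 155 and 144 CPM, a log2 fold change of -0.37 ± 0.083 (edgeR adjusted p = 0.0074). It was the beta subunit whose call held after both trends were removed, at -0.43 (adjusted p = 0.013), but it did not pass with the length trend alone removed (-0.23, adjusted p = 0.064) or without fructose replicate 2 (-0.32, adjusted p = 0.088), all by edgeR. Psmb2 had 190 and 199 CPM against 169 and 152 CPM, a log2 fold change of -0.27 ± 0.085 (edgeR adjusted p = 0.035). Psmb4 had 235 and 246 CPM against 210 and 198 CPM, a log2 fold change of -0.24 ± 0.081 (edgeR adjusted p = 0.049). Psmb4 was thus at the threshold and lost its call in several other fits, among them the edgeR fit without TMM normalization (adjusted p = 0.11). After both trends were removed Psmb2 was at 0.016 and Psmb4 at 0.035, and neither passed (edgeR adjusted p = 0.93 and 0.82).

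Among the alpha subunits, Psma7 fell, from 139 and 137 CPM to 108 and 106 CPM, a log2 fold change of -0.37 ± 0.078 (adjusted p = 0.0063, edgeR's quasi-likelihood test). The libraries of each group lay close together and the groups did not overlap. After both trends were removed Psma7 was at -0.094 and did not pass (edgeR adjusted p = 0.47). Psma3 had the highest log2 fold change of the ring, with 94.4 and 82.1 CPM in control and 105 and 95.6 CPM in fructose, and a log2 fold change of 0.18 ± 0.092 that did not pass (edgeR adjusted p = 0.17) and was -0.070 after both trends were removed. Psma3 was the member of the core in which both fructose libraries lay above both controls. The other 5 tested alpha subunits, Psma1, Psma2, Psma4, Psma5 and Psma6, had log2 fold changes from -0.19 to -0.037 and did not pass. Psma2, with 130 and 135 CPM against 122 and 119 CPM, passed after both trends were removed, at -0.71 (edgeR adjusted p = 0.0034). That value takes its transcript as 2911 bases with a GC content of 39.4%, both medians of its protein-coding GENCODE basic transcripts.

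**Figure D4:**
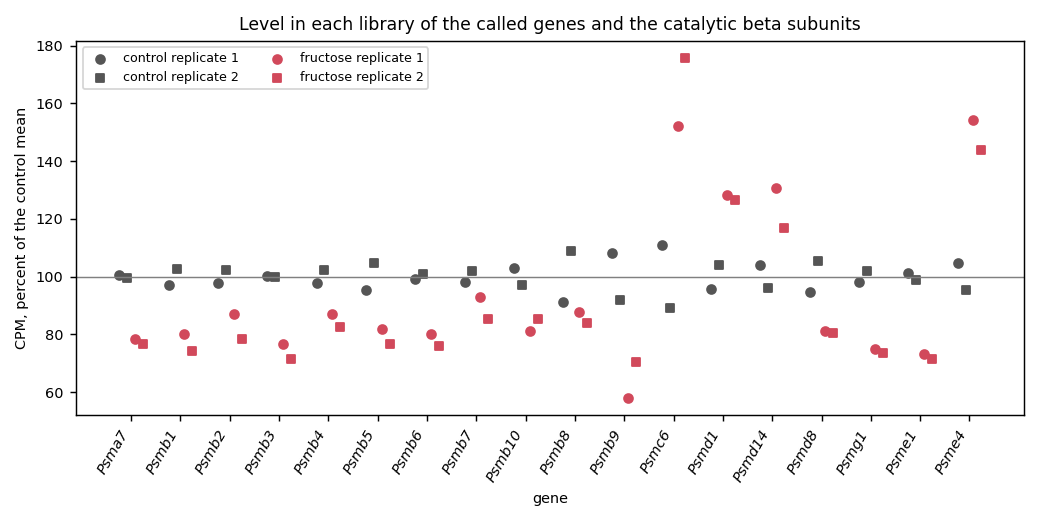
CPM in each library as percent of the gene's control mean, for the 14 genes that passed the test and the 4 other catalytic beta subunits. Grey marks are control, red marks fructose, circles replicate 1 and squares replicate 2. The fructose marks of the falling genes lie between 71.3 and 87.2% of the control mean, and those of Psmc6 and Psme4 at 144% or more.

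None of the 3 tested inducible beta subunits passed edgeR's quasi-likelihood test at an adjusted p under 0.05. Psmb9 was lower at an unadjusted p under 0.05, and DESeq2 called 0 of the 3 adjusted or unadjusted. Psmb8, which replaces Psmb5, had 9.87 and 11.8 CPM in control and 9.51 and 9.10 CPM in fructose. Psmb9, which replaces Psmb6, had 4.70 and 3.99 CPM against 2.52 and 3.06 CPM. Psmb10, which replaces Psmb7, had 20.3 and 19.1 CPM against 16 and 16.8 CPM. In all 3 the fructose libraries lay below the controls, with log2 fold changes of -0.22 ± 0.16, -0.64 ± 0.24 and -0.26 ± 0.12 and adjusted p of 0.32, 0.075 and 0.13 by edgeR. After both trends were removed the values were 0.083, -0.31 and 0.082. Psmb9 rests on 57 to 89 counts per library, and its exons overlap those of Tap1 on the other strand over 212 bases.

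The share of inducible subunits in the catalytic beta mRNA overlapped between the groups. Psmb8, Psmb9 and Psmb10 together made up 3.70% and 3.49% of the TPM of the 6 catalytic genes in control and 3.44% and 3.79% in fructose, a difference of 0.016 percentage points that was smaller than the SD within either group (0.147 and 0.251, n = 2). The fructose libraries lay on both sides of the controls. The level of the share depends on the length taken for each gene. Its control mean was 3.6% with the lengths used here and 4.0% with the union of a gene's exons. It was 5.1% with the median of all protein-coding transcripts and 5.7% from counts without lengths. Singly, Psmb8 made up 2.33% and 2.53% of Psmb8 plus Psmb5 in control and 2.61% and 2.66% in fructose. Psmb9 made up 1.44% and 1.21% of its pair against 0.962% and 1.23%, and Psmb10 8.89% and 8.16% against 7.53% and 8.51%. After both trends were removed the share of Psmb8 overlapped between the groups (2.504% and 2.594% against 2.495% and 2.529%). That of Psmb9 was then 1.51% and 1.23% against 0.935% and 1.19%. The group means of Psmb10 differed by -0.503 points as counted and by 0.463 points in that fit. With 2 libraries per group these shares were not tested. The 21 macrophage and leukocyte markers, cells known to carry the immunoproteasome, summed to 308 and 227 CPM in control and 218 and 234 CPM in fructose. Of the 17 tested markers 1 was higher and 4 were lower, and with both trends removed 0 were higher and 0 lower. None of the 21 was at 0 in all libraries, and their part was not tested.

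In the 19S regulatory particle, 3 of 17 genes rose and 1 fell, beside 15.5% and 10.7% of all tested genes. The median log2 fold change was -0.033. The 3 that rose came from different modules: an ATPase, a scaffold of the base and the deubiquitinase of the lid. After both trends were removed 16 of the 17 values lay above zero, beside 7608 of all 12888 tested genes. Their median was 0.098 beside 0.050 over all tested genes, and no gene passed (edgeR, adjusted p under 0.05). At an unadjusted p under 0.05 edgeR gave 2 higher and 0 lower. The symbol rule leaves out the 19S subunits Sem1 and Adrm1, at -0.72 and 0.24 in that fit. Sem1 was called lower there and Adrm1 did not pass (edgeR adjusted p = 0.0026 and 0.17).

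Psmc6 (chr14:45329788-45349705, plus strand, GRCm38) was the ATPase that rose. It had 19.4 and 15.6 CPM in control and 26.7 and 30.8 CPM in fructose, a log2 fold change of 0.71 ± 0.13 (adjusted p = 0.0031, edgeR's quasi-likelihood test). The other 5 ATPases, Psmc1 to Psmc5, had log2 fold changes from -0.22 (Psmc3) to -0.0095 and did not pass. Psmc3 had 143 and 151 CPM against 127 and 126 CPM, a log2 fold change of -0.22 ± 0.080 (edgeR adjusted p = 0.062), with no overlap of the groups; its exons overlap those of Slc39a13 on the other strand over 215 bases. With a GC content of 37%, Psmc6 is the member poorest in G and C, and after both trends were removed its value was 0.049 (edgeR adjusted p = 0.83).

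Psmd1, the large scaffold of the base, rose from 42.9 and 46.6 CPM to 57.4 and 56.7 CPM, a log2 fold change of 0.35 ± 0.088 (adjusted p = 0.013, edgeR's quasi-likelihood test). When both trends were removed its value was 0.25 and did not pass (edgeR adjusted p = 0.10). Its exons overlap those of Gm21972 on the same strand over 301 bases and those of Htr2b on the other strand over 252 bases. Psmd2, the other scaffold, which docks ubiquitin shuttles, had a log2 fold change of 0.016 ± 0.088. Psmd4, a ubiquitin receptor, had 149 and 158 CPM against 139 and 129 CPM and a log2 fold change of -0.20 ± 0.083 (edgeR adjusted p = 0.096).

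In the lid, Psmd14, which cleaves ubiquitin chains from the substrate, rose from 33.9 and 31.3 CPM to 42.5 and 38.1 CPM, a log2 fold change of 0.31 ± 0.099 (adjusted p = 0.040, edgeR's quasi-likelihood test). DESeq2 did not call it (adjusted p = 0.12), and after both trends were removed it was at 0.17 and did not pass (edgeR adjusted p = 0.32). Psmd8, a structural lid subunit, fell from 303 and 338 CPM to 260 and 257 CPM, a log2 fold change of -0.31 ± 0.085 (edgeR adjusted p = 0.021). The fructose libraries of Psmd8 lay close together and the controls further apart, with no overlap. With both trends removed Psmd8 was at -0.039 and did not pass (edgeR adjusted p = 0.81). The other 6 lid genes, Psmd3, Psmd6, Psmd7, Psmd11, Psmd12 and Psmd13, had values from -0.13 to 0.065, with overlapping groups in each.

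The balance of 19S to 20S mRNA was higher in both fructose libraries than in both controls. The mean level of a 20S gene was 252.5 and 260.2 TPM in control and 231 and 223 TPM in fructose, while that of a 19S gene was 90.9 and 96.6 TPM against 95.8 and 89.8 TPM. The ratio of the 19S mean to the 20S mean was 0.360 and 0.371 in control and 0.415 and 0.402 in fructose. Both fructose libraries lay above both controls, by 0.0429 on average (SD within the groups 0.00814 and 0.00897, n = 2). Among single genes, 33.4% of all tested also had both fructose libraries above both controls. After both trends were removed the ratio was 0.369 and 0.369 against 0.410 and 0.397, so that the libraries were ordered the same way. In that fit, however, the 20S means overlapped between the groups (159 and 166 against 161 and 155 CPM per kilobase). The 19S means were 58.8 and 61.1 against 65.8 and 61.6 CPM per kilobase, higher in both fructose libraries. The parts behind the ratio thus differed between the 2 fits. The ratio was computed after single-gene values had been seen and was not tested.

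**Figure D5:**
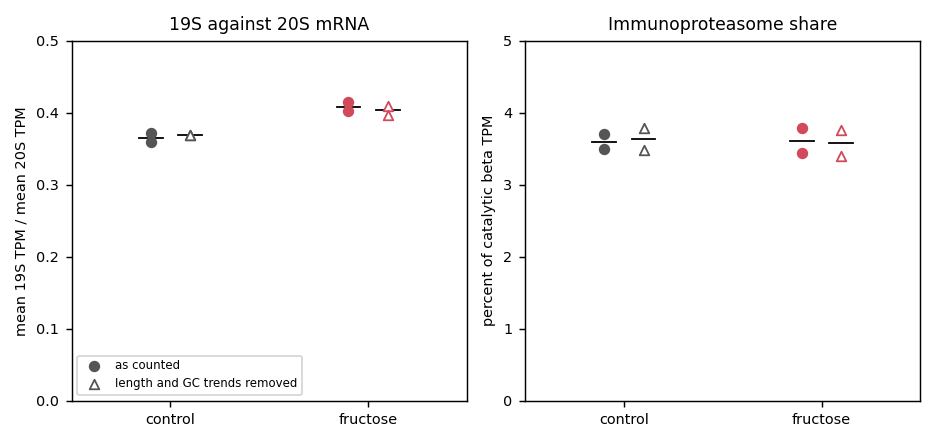
Left, mean TPM of the 17 genes of the 19S particle over that of the tested 20S genes; right, share of Psmb8, Psmb9 and Psmb10 in the TPM of the 6 catalytic beta genes. Each point is a library (filled circles as counted, open triangles after removal of the length and GC trends), lines are group means, and axes start at 0. The ratio is higher in both fructose libraries (0.402 and 0.415) than in control (0.360 and 0.371), and the share overlaps between the groups.

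Among the assembly chaperones, 1 of 7 fell and none rose, beside 10.7% and 15.5% of all tested genes. Of the 7, 6 lay below zero, with a median log2 fold change of -0.37. Psmg1, which helps to build the alpha ring, fell from 40.3 and 41.9 CPM to 30.8 and 30.2 CPM, a log2 fold change of -0.43 ± 0.092 (adjusted p = 0.0064, edgeR's quasi-likelihood test). With both trends removed Psmg1 was at -0.14 and did not pass (edgeR adjusted p = 0.36). Its partner Psmg2 and the pair Psmg3 and Psmg4 had values of -0.37, -0.38 and -0.37 that did not pass (edgeR adjusted p = 0.050, 0.061 and 0.10), with both fructose libraries below both controls in each. The adjusted p of Psmg2 lay just above the threshold before rounding. Exons of Psmg3 overlap those of Gm26938 on the same strand over 280 bases. Psmd5, Psmd9 and Psmd10, which guide the assembly of the 19S base, had values of 0.024, -0.25 and -0.24, none past the threshold. Psmd5 had 38.6 and 35.4 CPM against 39.2 and 36.1 CPM, with overlapping groups. After both trends were removed the median of the chaperones was -0.14, none of the 7 passed, and the order of the members changed. Psmd10 was then at -0.41, Psmg2 at -0.27, Psmd5 at -0.25 and Psmd9 at -0.11. Psmg3 and Psmg4 turned to 0.033 and 0.091.

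Of the 5 tested activators and inhibitors, 1 rose and 1 fell, beside 15.5% and 10.7% of all tested genes. Psme1 (chr14:55578123-55581529, plus strand, GRCm38), a subunit of the PA28 activator that opens the core without ubiquitin, fell from 419 and 410 CPM to 304 and 296 CPM. Its log2 fold change of -0.47 ± 0.080 had the smallest p of all members (adjusted p = 0.0021, edgeR's quasi-likelihood test). Psme2, the other subunit of the same ring, had 196 and 189 CPM against 171 and 158 CPM and did not pass (-0.23 ± 0.082, edgeR adjusted p = 0.058). Psme4 (chr11:30771726-30880361, plus strand, GRCm38), the large activator PA200, rose from 23.6 and 21.6 CPM to 34.8 and 32.5 CPM, a log2 fold change of 0.57 ± 0.10 (edgeR adjusted p = 0.0028). Its groups were well apart, and its transcript of 6491 bases is the longest and that of Psme1, 711 bases, among the shortest of the members. After both trends were removed the values were -0.12 for Psme1 and 0.092 for Psme4, and neither passed. Psme3, the nuclear PA28 subunit, and Psmf1, the inhibitor PI31, had log2 fold changes of -0.0071 and -0.10. Psmc3ip had 3.06 and 2.11 CPM against 2.30 and 2.98 CPM and a log2 fold change of 0.031 ± 0.29. Its exons overlap those of Mlx on the other strand over 385 bases.

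Of 24 proteasome partners outside the symbol rule, 21 were matched and tested, of which 5 rose and none fell (edgeR, adjusted p under 0.05). Over all tested genes 15.5% rose and 10.7% fell at that threshold, and 4.69% and 1.64% after both trends were removed. At an unadjusted p under 0.05 edgeR gave 1 lower, and DESeq2 called 3 higher and 0 lower (adjusted). The median log2 fold change was 0.099, and 0.0255 after both trends were removed, beside 0.050 over all tested genes in that fit. Ecpas, a proteasome adaptor, rose from 19 and 19.1 CPM to 33.3 and 32.1 CPM (log2 fold change 0.78 ± 0.10, edgeR adjusted p = 5.9e-04). Ddi2 and Ngly1, a protease and a glycanase that act on the NFE2L1 protein, rose by 0.59 and 0.50, and Zfand5 and Ubqln2 by 0.39 and 0.51 (log2). Nfe2l1 itself had 287 and 326 CPM against 342 and 313 CPM and did not pass (0.094 ± 0.092, edgeR adjusted p = 0.48). After both trends were removed Ecpas (0.40) and Ddi2 (0.38) were called higher, Ubqln2 (0.49) and Ngly1 (0.22) did not pass, and Zfand5 turned to -0.41 (edgeR adjusted p = 0.059). Sem1, a small lid subunit named after its value was seen, was called lower in that fit (-0.72, edgeR adjusted p = 0.0026).

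Of 11 genes of MHC class I antigen processing, which uses peptides cut by the proteasome, 2 rose (Erap1 and Canx) and none fell. At an unadjusted p edgeR gave 2 lower, and DESeq2 called 0 lower. For this and the lists below, edgeR called 15.5% of all tested genes higher and 10.7% lower. With both trends removed these shares were 4.69% and 1.64%. After both trends were removed Erap1 (0.21) and Canx (-0.067) did not pass, and H2-K1 was higher (0.40) and B2m lower (-0.40), at edgeR adjusted p of 0.026 and 0.028. Of 17 tested interferon response genes 4 rose (Ifit2, Gbp3, Jak1 and Jak2) and 1 fell (Irf7), of which DESeq2 called 2 higher (Gbp3 and Jak1) and Irf7 lower, and with both trends removed 1 was called higher (Gbp3) and 0 lower. The medians of these lists were -0.059 and 0.013, and 0.045 and 0.035 with both trends removed. Other complexes of many subunits had median log2 fold changes of -0.18 for the COP9 signalosome (1 of 10 higher, 4 lower), -0.21 for eIF3 (1 of 13 higher, 6 lower) and -0.12 for the CCT chaperonin (0 of 8 higher, 1 lower). With both trends removed the medians were -0.034, -0.088 and -0.020, with 1 higher and 0 lower, 1 higher and 1 lower, and 0 and 0 called by edgeR. The difference between these complexes and the proteasome was not tested.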

How the data were processed

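Total RNA from E18.5 fetal BAT was sequenced, with 2 control and 2 fructose libraries. Per the labels and the study's methods, the authors filtered reads (fastp), mapped them to mm10 (Bowtie2 2.0.0.5, TopHat2 2.0.0), assembled transcripts (StringTie 2.2.0), merged them with Cuffmerge and took the counts of genes from the merged file. The authors deposited raw counts per gene, without normalization; the program that counted the reads and its settings are not given in the sources used here. The 4 single-library tables held the same counts as the joint table. Symbols, coordinates and lengths (median of the protein-coding GENCODE M21 basic transcripts, GRCm38) were matched by Ensembl identifier, and 43 of 22298 had none.

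Genes kept by filterByExpr (12888) were tested with edgeR 4.0.16 (R 4.3.3; TMM, quasi-likelihood, two-sided, Benjamini-Hochberg adjustment over all genes, no covariate); tests were checked on simulated counts. CPM are TMM-normalised, and TPM were computed from the counts. Libraries of a group differed beyond sampling noise (chi-square per degree of freedom 13.1 and 8.45). Alternatives were DESeq2 1.42.0, other scalings and filters, a replicate block, removal of length and GC trends (lowess, span 0.3, as offsets) and each library left out. Described with library values are the catalytic beta subunits, the highest and lowest member of each class, members past the threshold (up to 12 by p under the rule; all 14 are given) and members with few counts; Psma2 and further genes were named after their values were seen. The members and lists were chosen with earlier results of these data known. Xist was not analysed here, and the list of ubiquitin genes is not reported here.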

Additional observations from a re-analysis of the deposited data

How the results depend on the processing

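With 10 members lower, 4 higher and 6 past the study's thresholds, the calls held within 1.5 times under DESeq2, other library sizes and both low-count filters, apart from 10 past the study's thresholds with DESeq2's size factors. The replicate numbers were not shown to pair the libraries (correlation of same-numbered deviations -0.042), and the replicate block gave 9 lower (Psmb4 lost) and 4 higher. Scaled by library size only, 8 were lower and 4 higher, and the median log2 fold changes were -0.099 (members; all tested genes 0.063), -0.15 (20S core), -0.20 (inducible beta), -0.31 (chaperones) and -0.042 (activators and inhibitor). Without the length trend, 0 were lower (1 at an unadjusted p under 0.05 by edgeR), 4 higher and 2 past the study's thresholds, and the medians were 0.0033 (members), -0.013 (20S), 0.081 (19S), -0.064 (inducible beta), -0.13 (chaperones) and 0.016 (activators and inhibitor); Psmb7 turned to 0.051 and Psmd5 to -0.13. Without the GC trend, 9 were lower and 0 higher (3 at an unadjusted p under 0.05 by edgeR), the medians were -0.044 (inducible beta), -0.18 (chaperones) and 0.0054 (activators and inhibitor), and Psma3 turned to -0.22, Psmc6 to -0.11, Psmd14 to -0.014 and Psmd5 to -0.16. Without both trends, 2 were lower, 0 higher and 3 past the study's thresholds, with medians of 0.050 (members), -0.025 (20S), 0.098 (19S; 0.097 with the replicate block), 0.082 (inducible beta; 0.081 with it), -0.14 (chaperones) and 0.035 (activators and inhibitor; 0.036 with it). In that fit 30 of the 47 tested members lay above zero, beside 7608 of all 12888 tested genes, against 10 members without it. Among the 22 members described with alternatives, those turned by that fit and the same fit with the replicate block, in that order, were Psma3 (-0.070 and -0.071), Psmb2 (0.016 and 0.015), Psmb4 (0.035 in both), Psmb5 (0.106 and 0.108), Psmb6 (0.051 and 0.052), Psmb8 (0.083 and 0.085), Psmb10 (0.082 and 0.081), Psmc3 (0.073 and 0.072), Psmd4 (0.11 in both) and Psmd5 (-0.25 in both).

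Leaving out 1 library left 1 in its group, which was taken to vary like the other group. The members lower then ranged from 3 (without fructose replicate 2) to 14, those higher from 2 (without fructose replicate 1) to 5, and those past the study's thresholds from 8 to 10 (10 without control replicate 1). The medians ranged from -0.217 to -0.118 (members), -0.267 to -0.172 (20S), -0.13 to 0.058 (19S), -0.348 to -0.248 (inducible beta), -0.356 to -0.293 (chaperones) and -0.156 to -0.044 (activators and inhibitor). Psmd5 ranged from -0.036 to 0.085, below zero without control replicate 2 (-0.036) or fructose replicate 1 (-0.032). The inducible share differed by -0.161 to 0.194 points. The 19S to 20S difference ranged from 0.0365 to 0.0492 over the libraries left out and was 0.0696 without lengths, 0.0601 with the median of all protein-coding transcripts and 0.0341 without both trends, alternatives chosen after seeing the data. The cause of these shifts was not tested.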
